A study of Mus musculus with 2 samples.

Results

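Levels of 5 ion channel genes, Hcn2, Hcn3, Hcn4, Kcnq3 and Kcnq5, were described across regions of the mouse brain. They were taken by gene symbol from the 32285 genes of the deposited count tables, and every one of the 5 was found, detected in both sections and kept by the filter on low counts. Other genes of the HCN and KCNQ families were not analysed here. The tissue was wild-type C57BL/6 mouse brain, sampled at ZT12 by its label, where ZT usually means hours since the lights came on. C57BL/6 is a common inbred laboratory strain. RNA was measured with 10x Visium, in which polyadenylated RNA of a section 10 µm thick is captured on a slide by spots with positional barcodes. A spot usually covers more than 1 cell. The study had 2 sections, labelled as replicates 1 and 2 of 1 group and called section 1 and section 2 below. The stated purpose was to describe how regions of the brain differ. The labels do not say whether the sections came from separate animals. The p-values therefore measure only how differences between regions varied between these 2 sections, a spread that may be technical.

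HCN channels open when a neuron is hyperpolarised and carry a depolarising inward current that is enhanced by cyclic AMP. They set resting potential and input resistance, and in thalamic relay neurons they act together with T-type calcium channels in rhythmic burst firing. Channels built from KCNQ subunits carry the M-current, a slow potassium current that restrains repetitive firing and that closes when muscarinic receptors act through Gq and phospholipase C. Hcn2 encodes a widely expressed HCN subunit, Hcn4 the slow subunit known as the main cardiac pacemaker channel and for its presence in thalamus, and Hcn3 the HCN subunit that responds little to cyclic AMP. Kcnq3 and Kcnq5 encode subunits of the M-channel that can assemble with each other.

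Spots with at least 500 UMIs (unique molecular identifiers, which count captured RNA molecules) were used, 3030 of 3167 in section 1 and 2531 of 2533 in section 2, with a median of 18127 and 21555 UMIs per spot. Mitochondrially encoded genes took 14.9% of UMIs in section 1 and 14.3% in section 2, and 1965 spot barcodes occurred in both sections, since barcodes name positions on the array. A spot was put in the class of the anatomical marker list on which it scored highest, and no channel gene was on a list. Of the 5561 spots kept, 4326 fell in 17 classes that had at least 30 spots in each section. The classes differed in size between the sections: superficial isocortex had 186 spots in section 1 and 37 in section 2, striatum had 31 and 228, and the sum of striatum in section 1 was the smallest, with 223639 UMIs. Genes on a list lead its class by construction, so only other genes bear on the name: among the 10 leading genes, thalamus had Rgs16 and fibre tracts had Klk6, which were on no list. The class of the habenula list had Calca, Cbln2 and Barhl1 beside its list genes, which is a mixed set. That class is called Tac2-rich below and carries the name habenula in the plots. In summed spots, fewer cells of a type and less RNA per cell cannot be told apart.

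Counts were summed per section and class, and 1 model over all genes, with a term for the section, set each class against the average of the other 16. Levels below are in CPM, the usual scale for a gene's counts relative to the total, here all UMIs of the same spots, and intervals are exact 95% Poisson intervals, which cover counting error only. Log2 fold changes, their standard errors (SE) and p-values adjusted by Benjamini-Hochberg over 13522 genes come from edgeR's quasi-likelihood test, and a gene was called at an adjusted p under 0.05. Where the sum of 1 section is left out, the class is a single sum that is assumed to vary like the other classes. All 5 genes differed among the classes (adjusted p = 4.56e-13 for Hcn2, 0.0158 for Hcn3, 8.10e-10 for Hcn4, 3.90e-08 for Kcnq3 and 1.54e-11 for Kcnq5), as did 56.1% of all genes tested. Over the 85 comparisons of a gene with a class, 15 were called higher and 13 lower, and over all genes 6.82% of comparisons were called higher and 4.53% lower. Kcnq5 was called in 11 of its 17 comparisons, Hcn2 in 8 and Kcnq3 in 7, while Hcn3 and Hcn4 were each called in 1.

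**Figure D1:**
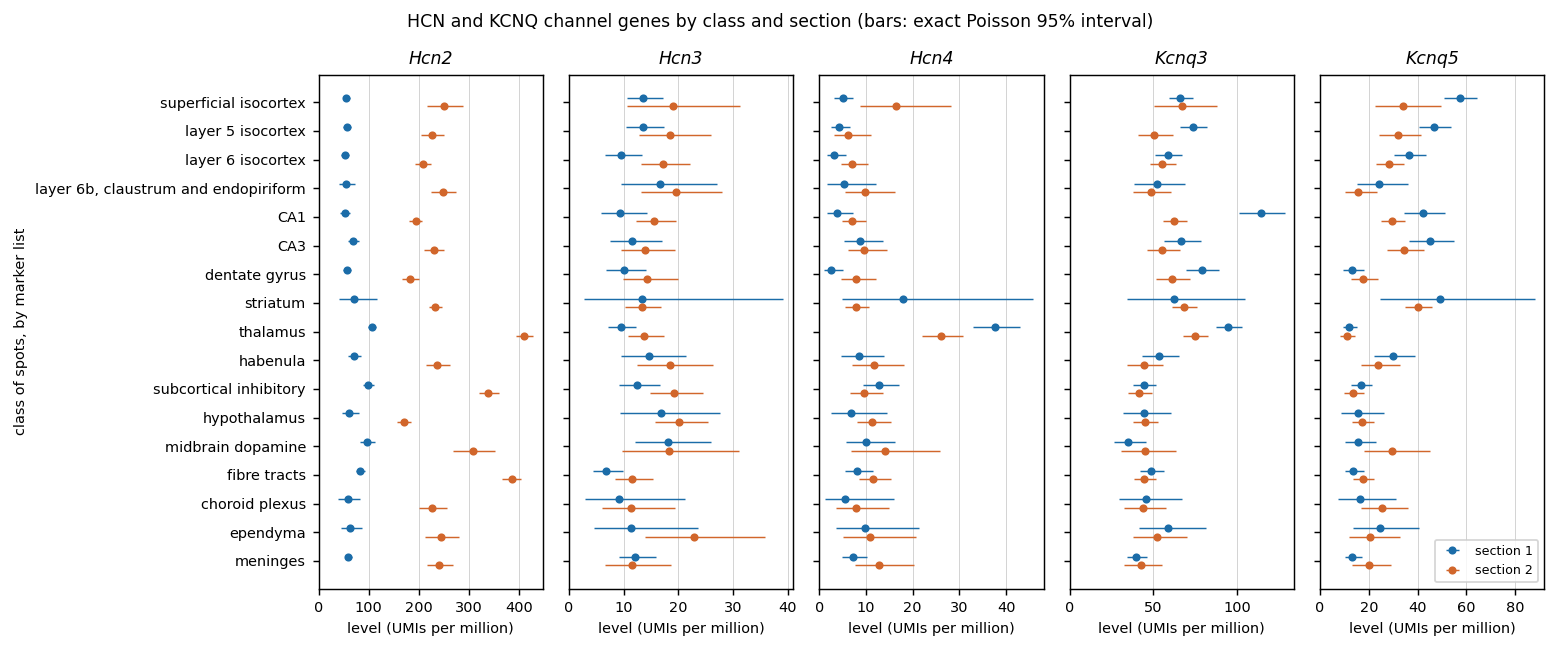
Level of each channel gene (CPM, horizontal axes) in each of the 17 classes of spots (vertical axis), in section 1 (blue) and section 2 (orange), with exact 95% Poisson intervals. Hcn2 lies to the right in section 2 in every class. Hcn4 is highest in thalamus in both sections. Its interval there overlaps that of striatum in section 1 and those of superficial isocortex and midbrain dopamine in section 2. Kcnq5 is lowest in thalamus in both sections, with intervals that overlap those of other classes.

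Thalamus was the class in which 4 of the 5 genes were called. Hcn4, Hcn2 and Kcnq3 were higher there than in the other classes and Kcnq5 was lower. This made 3 of 5 called higher, against 11.7% of all genes, and 1 of 5 called lower, against 10.1%.

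Hcn4 had 225 UMIs in the 328 thalamus spots of section 1, or 37.6 CPM (32.9 to 42.9), and the other 16 classes of that section lay between 2.58 and 17.9 CPM. In section 2 it had 140 UMIs in 258 thalamus spots, or 26.1 CPM (21.9 to 30.8), and the other classes lay between 6.16 and 16.5 CPM. In both sections thalamus was the highest class. Its interval overlapped that of striatum in section 1 (4 UMIs) and those of superficial isocortex (13 UMIs) and midbrain dopamine (10 UMIs) in section 2. Against the other classes its log2 fold change was 2.06 ± 0.16 (SE, adjusted p = 1.15e-13, edgeR). It stayed called when the thalamus sum of either section was left out, with 1.51 without section 1 and 2.57 without section 2. In pairwise comparisons thalamus was called higher than each of the other 16 classes for Hcn4, by a log2 difference of 1.5 ± 0.35 (midbrain dopamine) to 2.78 ± 0.31 (dentate gyrus).

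Within the thalamus class Hcn4 also varied with the score. In the upper tertile of spots by score on the thalamus list it had 49.9 CPM in section 1 and 30.4 CPM in section 2 (102 and 56 UMIs). In the lower tertile it had 26.9 and 20.7 CPM (50 and 35 UMIs). The gap was smaller in section 2, and the tertiles were not tested. Of the 100 spots of section 1 with the highest Hcn4 level (among spots with at least 5000 UMIs), 49 were thalamus spots, a class that made up 11.4% of those spots. In section 2 the count was 29 of 100, with a class share of 10.3%. Fibre tracts supplied 11 of the 100 spots in section 1 and 21 in section 2, with class shares of 9.75% and 11.4%. After each spot was thinned to 5000 UMIs, a Hcn4 UMI was present in 19.4% of thalamus spots in section 1 (15.2 to 24.1, exact binomial) and 9.30% in section 2 (6.05 to 13.5). In choroid plexus spots, a tissue without neurons of its own, the shares were 3.45% (0.0873 to 17.8) and 3.70% (0.452 to 12.7). The next highest tested class of section 1 was subcortical inhibitory, with 7.66% (4.44 to 12.1). In section 2 thalamus was not set apart: midbrain dopamine spots had 8.57% (1.80 to 23.1) and hypothalamus 7.69% (3.75 to 13.7). Without thinning, the shares were 46.0% and 39.9% in thalamus (median 18285 and 20657 UMIs per spot) and 5.71% and 16.4% in choroid plexus (13263 and 21844 UMIs).

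Hcn2 had 107 CPM (98.4 to 115) in thalamus spots of section 1, against 52.1 to 99.1 CPM in the other classes, and 410 CPM (393 to 428) in section 2, against 169 to 385 CPM. Its thalamus level was the highest of the 17 classes in each section, although the ratio of section 1 to section 2 was 0.260 in these spots. In section 1 the thalamus interval overlapped those of subcortical inhibitory, midbrain dopamine and striatum spots (16 UMIs in striatum). In section 2 it overlapped that of fibre tracts (366 to 405). The log2 fold change was 0.79 ± 0.07 (SE, adjusted p = 7.68e-12, edgeR), and it was 0.74 in section 1 alone and 0.81 in section 2 alone. The call depended on the term for the section: without it the log2 fold change was 0.78 with an adjusted p of 0.599 (edgeR), and none of the 8 Hcn2 calls held.

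Kcnq3 had 94.8 CPM (87.2 to 103) in thalamus spots of section 1, where only CA1 was higher, and 75.1 CPM (67.9 to 82.8) in section 2, the highest of all classes. The other classes lay between 34.9 and 114 CPM in section 1 and between 41.5 and 68.5 CPM in section 2. The log2 fold change was 0.68 ± 0.09 (SE, adjusted p = 1.71e-07, edgeR). In the upper tertile of thalamus spots Kcnq3 had 111 and 80.8 CPM in sections 1 and 2 (227 and 149 UMIs). The lower tertile had 71.6 and 67.0 CPM (133 and 113 UMIs). As for Hcn4, the gap was smaller in section 2 and was not tested.

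Kcnq5 ran the other way. It had 11.9 CPM (9.27 to 15) in thalamus spots of section 1 and 11.0 CPM (8.37 to 14.2) in section 2, the lowest level of the 17 classes in both, against 13.2 to 57.3 CPM and 13.5 to 40.1 CPM in the others. None of the 16 steps between neighbours in the order of mean Kcnq5 levels was called. The thalamus interval overlapped those of several classes in both sections, among them dentate gyrus, fibre tracts and subcortical inhibitory spots. The log2 fold change was -1.08 ± 0.16 (SE, adjusted p = 1.67e-06, edgeR), and it stayed called without either section (-1.02 without section 1 and -1.12 without section 2). Hcn3 was not called in thalamus: it had 9.53 and 13.8 CPM there, against a range over the other classes of 6.73 to 18.1 CPM in section 1 and 11.3 to 23.0 CPM in section 2, with a log2 fold change of -0.25 ± 0.13 (adjusted p = 0.185, edgeR).

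Upstream sequences are shown for Hcn2, Hcn4 and Kcnq5, the 3 genes for which a sequence was available. None was available for Hcn3 or for Kcnq3, which was also called higher in thalamus. On GRCm38.p6, the genes lie at chr10:79716634-79736108 (Hcn2), chr9:58822949-58863175 (Hcn4), chr3:89146775-89160284 (Hcn3), chr15:65986374-66286636 (Kcnq3) and chr1:21398399-21962650 (Kcnq5), and all 5 are protein coding. The 250 bases before the gene start, from RefSeq on GRCm38.p6, lie at chr10:79716384-79716633 on the plus strand for Hcn2, at chr9:58822699-58822948 on the plus strand for Hcn4 and at chr1:21962651-21962900 on the minus strand for Kcnq5. Capitals mark matches on either strand to CTTTGA (the core bound by TCF and LEF factors, whose genes Tcf7l2 and Lef1 mark thalamus), AGGTCA (the nuclear receptor element, as for the thalamus marker Rora), GGGCGG (GC box) or CACGTG (E-box), with overlapping matches run together.
Hcn2: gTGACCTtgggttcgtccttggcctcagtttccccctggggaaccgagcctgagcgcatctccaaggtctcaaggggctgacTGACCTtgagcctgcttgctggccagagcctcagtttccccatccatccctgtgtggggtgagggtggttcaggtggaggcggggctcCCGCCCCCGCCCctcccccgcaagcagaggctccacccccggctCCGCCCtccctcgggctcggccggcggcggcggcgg
Hcn4: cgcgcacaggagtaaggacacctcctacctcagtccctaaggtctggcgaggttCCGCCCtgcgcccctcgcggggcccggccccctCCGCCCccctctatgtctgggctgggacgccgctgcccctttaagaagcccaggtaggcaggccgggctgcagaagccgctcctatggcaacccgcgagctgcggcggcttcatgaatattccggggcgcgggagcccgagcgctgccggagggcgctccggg
Kcnq5: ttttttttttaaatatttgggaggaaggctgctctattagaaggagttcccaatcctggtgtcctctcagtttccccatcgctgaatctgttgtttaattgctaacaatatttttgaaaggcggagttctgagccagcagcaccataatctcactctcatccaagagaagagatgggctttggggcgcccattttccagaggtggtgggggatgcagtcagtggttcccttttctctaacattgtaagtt

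The Hcn2 and Hcn4 windows were rich in G and C (70.4% and 71.2%), while the Kcnq5 window had 44.4%, against a median of 52.4% over 32851 windows of the same length. Hcn2 held 2 matches to AGGTCA and 3 GC boxes, Hcn4 held 2 GC boxes, and the Kcnq5 window held none of the 4 motifs. Of all windows, 14.0% held AGGTCA, 32.7% a GC box, 13.8% CTTTGA and 6.02% CACGTG. A match is a description of these letters and not evidence of binding.

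**Figure D2:**
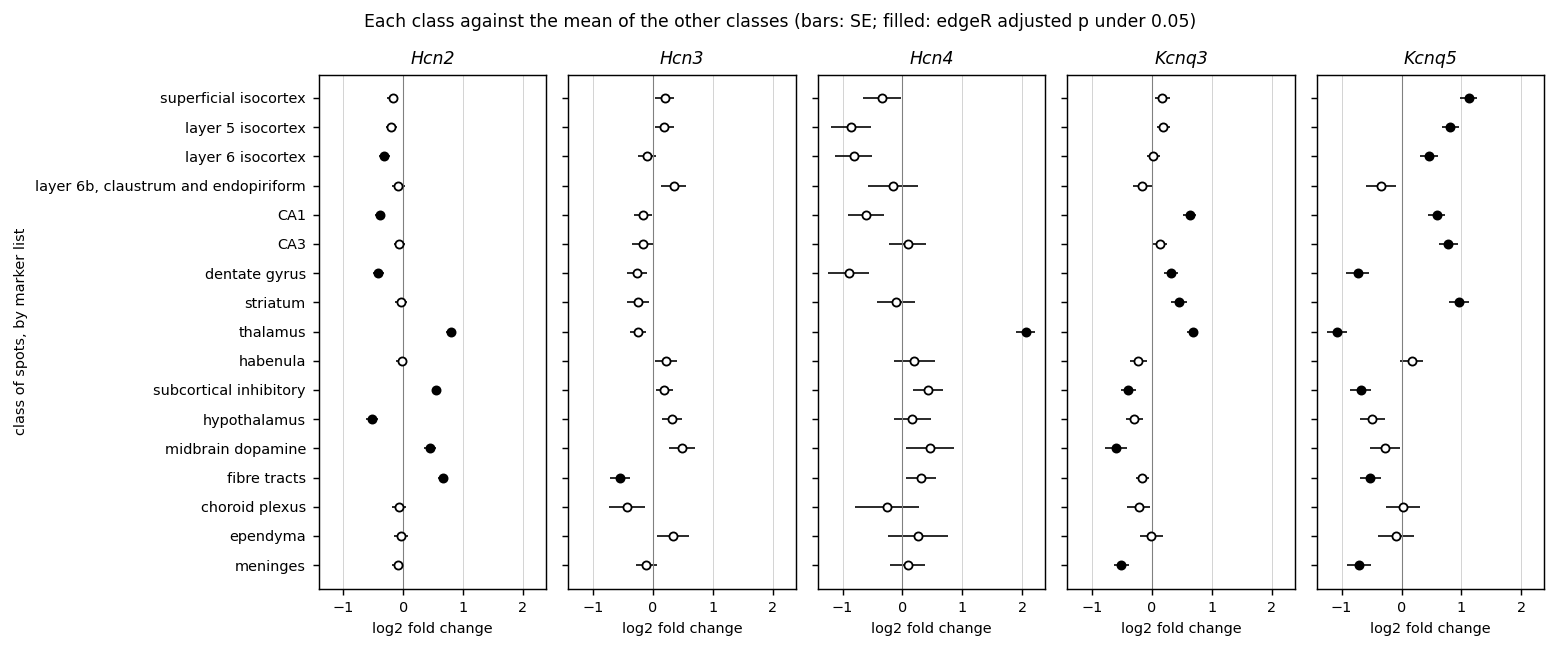
Log2 fold change of each channel gene in a class against the mean of the other 16 classes (horizontal axes, bars are SE), for the 17 classes (vertical axis). Filled points have an edgeR adjusted p under 0.05. Thalamus has Hcn4 at 2.06 and Kcnq5 at -1.08, and Kcnq5 is above 0 and filled in superficial, layer 5 and layer 6 isocortex, CA1, CA3 and striatum.

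Genes that act with these channels were also followed in thalamus. Of the 3 T-type calcium channel genes, Cacna1g, the main T-type gene of thalamic relay neurons, was higher (log2 fold change 1.56 ± 0.10, adjusted p = 4.80e-16, edgeR), while Cacna1h (-0.80 ± 0.14) and Cacna1i (-0.73 ± 0.11) were lower; the median of the list was -0.73, against -0.02 for all genes. Of 8 partners of HCN channels, 2 were higher and 1 lower, with a list median of 0.14. The higher ones were Mrvi1, which encodes an endoplasmic reticulum protein that modulates HCN4 gating (2.58 ± 0.13), and Vapb, which encodes an endoplasmic reticulum tether (0.23 ± 0.06). Flna, which encodes the actin crosslinker filamin A, was the lower one (-0.28 ± 0.08).

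Of the 7 genes of the muscarinic and Gq pathway to the M-current, 1 was higher and 3 were lower in thalamus, with a median of -0.02. Plcb4, a phospholipase C isoform, was higher (1.82 ± 0.09), while its relative Plcb1 (-0.73 ± 0.12) and the muscarinic receptor genes Chrm1 (-0.94 ± 0.15) and Chrm3 (-0.53 ± 0.16) were lower. Of 6 adenylyl cyclase genes, Adcy8 (1.10 ± 0.21) and Adcy1 (0.57 ± 0.08) were higher and Adcy2 (-0.60 ± 0.10) was lower, with a median of -0.10. Each of the changes given in this and the foregoing paragraph had an adjusted p under 0.05 by edgeR. Pan-neuronal genes stood high in the same spots: 7 of 8 were called higher and 1 lower, and their summed level was 7836 CPM in thalamus spots of section 1, against 4012 to 7615 CPM in the other classes, and 7795 CPM in section 2, against 4745 to 7371 CPM. Interneuron genes were called lower in thalamus, 6 of 6. None of the 8 pan-neuronal genes was at 0, and the part that neuron content has in the channel results was not tested.

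Outside thalamus, Hcn2 was called higher in fibre tracts, subcortical inhibitory spots and midbrain dopamine spots, and lower in hypothalamus, dentate gyrus, CA1 and layer 6 isocortex. For fibre tracts, 15.9% of all genes were called higher and 11.9% lower. Hcn2 had 83.5 CPM (74.4 to 93.3) in fibre tract spots of section 1 and 385 CPM (366 to 405) in section 2, below thalamus, subcortical inhibitory and midbrain dopamine spots in section 1 and below only thalamus in section 2. In the fit the log2 fold change was 0.66 ± 0.07 (adjusted p = 2.54e-09, edgeR), with 0.76 when the section 1 sum of the class was left out and 0.42 when the section 2 sum was left out, a change of more than 1.5 times. Without the section term its adjusted p was 0.561. Within the class the sections also differed. Spots in the upper tertile of the fibre tract score had 64.5 CPM in section 1, against 87.7 CPM in the lower tertile, while in section 2 the upper tertile had 421 CPM and the lower tertile 364 CPM.

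Neuronal genes were low in these spots. Of 8 pan-neuronal genes, 7 were called lower in fibre tracts and none higher, with a summed level of 4387 CPM in section 1, against 4012 to 7836 CPM in the other classes, and 4745 CPM in section 2, against 5139 to 7795 CPM. Microglial genes (6 of 6 called higher), astrocyte genes (5 of 7) and red blood cell genes (5 of 5) were higher there, and no gene of these lists was at 0. The summed microglial level was 514 CPM in section 1, against 273 to 528 CPM in the other classes, and 483 CPM in section 2, against 261 to 446 CPM. Their part in the Hcn2 level was not tested. Kcnq5 was called lower in fibre tracts (13.7 and 17.5 CPM, -0.52 ± 0.17, adjusted p = 0.0189, edgeR), as were 5 of 6 genes for anchors and calmodulin (median -0.39), 4 of 7 of the muscarinic and Gq pathway (median -0.41) and 3 of 6 adenylyl cyclases (median -0.41), against a median of 0.01 for all genes. The HCN partners Pex5l, which encodes the trafficking subunit TRIP8b (0.93 ± 0.09), and Kctd3, which encodes an HCN3-binding protein (0.72 ± 0.09), were called higher. Hcn3 was called lower in fibre tracts, its single call, with 6.73 CPM (4.36 to 9.94) in section 1 and 11.6 CPM (8.49 to 15.4) in section 2 (log2 fold change -0.55 ± 0.16, adjusted p = 0.00828, edgeR). With spots grouped by clustering the Hcn3 value in fibre tracts was 0.015 (adjusted p = 0.964, edgeR), and without the section term its call was lost. Neither the Kcnq5 nor the Hcn3 call held without the section 1 sum (-0.27 and -0.45). The Kcnq5 call was lost in 5 of 13 alternative settings, among them no section term, a stricter minimum score and clustering.

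In subcortical inhibitory spots, a class whose list genes Six3, Pvalb and Gad1 lead it by construction, Hcn2 had 99.1 CPM in section 1 and 339 CPM in section 2. On average this was below only thalamus and fibre tracts. Its log2 fold change was 0.55 ± 0.08 (adjusted p = 2.06e-06, edgeR), and it stayed called without either section (0.50 without section 1 and 0.63 without section 2), but not without the section term (adjusted p = 0.839). In this class 6.74% of genes were called higher and 5.44% lower. Kcnq5 (-0.68 ± 0.18) and Kcnq3 (-0.39 ± 0.12) were called lower by edgeR, but both calls were lost without either section. Over 13 alternative settings the Kcnq5 call was lost in 5 and the Kcnq3 call in 7. No section term and clustering were among them for both genes. For Kcnq3, DESeq2 and spots with at least 5000 UMIs were among them too. Glutamatergic genes were lower in the same spots, 4 of 5 tested with none higher (median -1.07), and the whole list summed to 1054 CPM in section 1, against 891 to 3770 CPM in the other classes, and 1478 CPM in section 2, against 1535 to 3910 CPM. Midbrain dopamine spots had 96.6 CPM of Hcn2 in section 1 and 308 CPM in section 2 (0.45 ± 0.10, adjusted p = 0.00550, edgeR), and 2% of genes were called higher and 1.62% lower there. Without the section 1 sum the value was 0.33 with an adjusted p of 0.697. Kcnq3 was lower in the same spots (-0.61 ± 0.18, adjusted p = 0.0492, edgeR), and -0.22 without section 1. This Kcnq3 call was lost in 5 of 11 alternative settings, among them DESeq2, no section term and spots with at least 5000 UMIs. There 3 of 5 glutamatergic genes were lower, and 3 of 6 microglial and 3 of 7 astrocyte genes were higher, and 1 glutamatergic gene was at 0 in section 2. The part of these cell types in the channel results of both classes was not tested.

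The lowest Hcn2 levels lay in hypothalamus, dentate gyrus, CA1 and layer 6 isocortex. Hypothalamus had 61.4 CPM in section 1, above the cortical classes, CA1 and dentate gyrus, and 169 CPM in section 2, the lowest of all classes, and the call (-0.52 ± 0.10, adjusted p = 0.000603, edgeR) was lost without section 2 (-0.14, adjusted p = 0.912). Of all genes, 2.71% were called higher and 1.38% lower there. The class had 64 spots in section 1 and 130 in section 2. Cartpt, a gene on its list, had a ratio of section 1 to section 2 of 0.144 over all spots. The part of Cartpt in the make-up of the class was not tested. In dentate gyrus Hcn2 had 56.1 and 182 CPM (-0.42 ± 0.09), in CA1 52.1 and 194 CPM (-0.39 ± 0.09) and in layer 6 isocortex 52.2 and 208 CPM (-0.32 ± 0.09), in sections 1 and 2. The adjusted p-values were 0.000532, 0.00206 and 0.00847 (edgeR), and without the section 2 sum of the class they were 0.220, 0.188 and 0.101. Without section 1 the call in layer 6 isocortex was lost as well (adjusted p = 0.194). Of all genes, 9.55% were called lower in dentate gyrus, 4.22% in CA1 and 5.71% in layer 6 isocortex. The order of the 17 mean levels ran from thalamus (258 CPM) through fibre tracts, subcortical inhibitory, midbrain dopamine, Tac2-rich, ependyma, superficial isocortex, striatum, layer 6b with claustrum and endopiriform nucleus, meninges, CA3, choroid plexus, layer 5, layer 6, CA1 and dentate gyrus to hypothalamus (115 CPM). None of the 16 steps between neighbours in this order was called, while 52 of all 136 pairs of classes were, against 11.1% of pairs over all genes. The mean levels follow section 2 more than section 1, since Hcn2 was higher in section 2 in every class. In section 1 subcortical inhibitory (99.1 CPM) and midbrain dopamine spots (96.6 CPM) lay above fibre tracts (83.5 CPM).

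Hcn4 was called in no class other than thalamus. Its other levels were low, and in each section at most 47 UMIs stood behind a class. Striatum came next on average (17.9 CPM from 4 UMIs in section 1, 7.86 CPM from 39 UMIs in section 2), so that its place rested on the 4 UMIs of section 1, followed by midbrain dopamine (9.97 and 14.0 CPM) and subcortical inhibitory spots (12.8 and 9.63 CPM). The lowest levels were those of dentate gyrus (2.58 and 7.76 CPM), layer 5 (4.22 and 6.16 CPM) and layer 6 isocortex (3.15 and 7.04 CPM), with log2 fold changes of -0.89 ± 0.34, -0.86 ± 0.33 and -0.81 ± 0.31 that missed the threshold (adjusted p = 0.0598, 0.0973 and 0.0729, edgeR). Under alternative settings Hcn4 was called lower in dentate gyrus in 4 of 13, in layer 5 in 1 of 12 and in layer 6 in 2 of 13. The step from thalamus to striatum was the only step in the order of the 17 levels that was called (log2 difference 2.04 ± 0.31, adjusted p = 2.63e-06, edgeR), and 22 of the 136 pairs were called, of which 16 were those with thalamus.

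Hcn3 varied least. Mean levels ran from 9.14 CPM in fibre tracts to 18.4 CPM in hypothalamus, a ratio of 2.02, and 7 of 136 pairs of classes were called. Midbrain dopamine spots had 18.1 and 18.2 CPM in sections 1 and 2, layer 6b with claustrum and endopiriform nucleus had 16.7 and 19.6 CPM, and hypothalamus had 16.7 and 20.1 CPM. No class was called higher, and the largest positive log2 fold change was that of midbrain dopamine (0.49 ± 0.22, adjusted p = 0.274, edgeR).

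Kcnq5 was highest in superficial isocortex, striatum, CA3 and layer 5 isocortex, and was also called higher in CA1 and layer 6 isocortex. In superficial isocortex it had 57.3 CPM (51.0 to 64.2) in section 1 and 34.2 CPM (22.5 to 49.8) in section 2, with a log2 fold change of 1.12 ± 0.14 (adjusted p = 2.94e-07, edgeR), where 8.25% of all genes were called higher and 5.7% lower. In the 2 deeper cortical classes the values were 46.8 and 31.9 CPM in layer 5 (0.81 ± 0.14, adjusted p = 0.000112) and 36.4 and 28.2 CPM in layer 6 (0.46 ± 0.14, adjusted p = 0.0262), in sections 1 and 2. The background was 6.08% of genes higher and 4.33% lower in layer 5, and 8.41% higher in layer 6. The 3 cortical levels had the order superficial, layer 5, layer 6 in both sections, but neither step was called (superficial over layer 5: 0.29 ± 0.18, adjusted p = 0.729, edgeR). Without the section 1 sum none of the 3 calls held: the log2 fold changes were 0.63, 0.54 and 0.35 in superficial, layer 5 and layer 6 isocortex, with adjusted p-values of 0.746, 0.560 and 0.524. The call in layer 6 was lost in 5 of 13 alternative settings. Besides each section left out, these were DESeq2, no section term and leaving out the spots richest in red blood cell genes. Section 2 had only 37 spots of superficial isocortex.

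Striatum had 49.2 CPM of Kcnq5 (24.6 to 88.0, 11 UMIs) in section 1 and 40.1 CPM (34.7 to 46.1, 199 UMIs) in section 2, which was the highest class of section 2. In the fit its log2 fold change was 0.96 ± 0.17 (adjusted p = 6.25e-05, edgeR), and the sections taken separately gave 0.92 (section 1) and 0.91 (section 2). Of all genes, 5.25% were called higher and 2.71% lower in striatum. With the section 2 sum left out, the 31 spots of section 1 did not carry the call (0.85, adjusted p = 0.647). Kcnq3 in striatum had 62.6 and 68.5 CPM (0.45 ± 0.13, adjusted p = 0.0216, edgeR), and in section 1 alone it lay 0.04 below the other classes on the log2 scale. Without section 2 the estimate was -0.09. The Kcnq3 call was lost there, with DESeq2 and without the section term.

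The hippocampal fields differed in both KCNQ genes. CA1 had the highest mean level of Kcnq3, 114 CPM (101 to 129) in section 1 and 62.4 CPM (55.5 to 69.8) in section 2, and the intervals of the sections did not overlap. In section 2 CA1 lay below thalamus (75.1 CPM), striatum (68.5 CPM) and superficial isocortex (67.1 CPM). The log2 fold change was 0.63 ± 0.10 (adjusted p = 2.49e-05, edgeR), which became 0.27 without section 1 (adjusted p = 0.323) and 1.0 without section 2. Kcnq5 in CA1 had 42.3 and 29.6 CPM (0.58 ± 0.14, adjusted p = 0.00461), and 0.42 without section 1 (adjusted p = 0.328). In CA1, 6.4% of genes were called higher. The upper tertile of spots by CA1 score had 148 and 71.9 CPM of Kcnq3 in sections 1 and 2, against 84.1 and 55.3 CPM in the lower tertile.

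In CA3, Kcnq5 had 45.0 and 34.4 CPM (0.78 ± 0.16, adjusted p = 0.00121, edgeR), against a background of 3.25% of genes higher and 0.68% lower, and 0.67 without section 1 (adjusted p = 0.241). Kcnq3 in CA3 was not called (66.6 and 55.4 CPM). Dentate gyrus combined a higher level of Kcnq3 (79.0 and 61.2 CPM, 0.32 ± 0.11, adjusted p = 0.0391) with a lower level of Kcnq5 (13.2 and 17.6 CPM, -0.73 ± 0.19, adjusted p = 0.00492, edgeR), where 11.1% of genes were called higher. Without section 1 neither held. The Kcnq3 call was lost in 5 of 13 alternative settings, among them without section 2, DESeq2 and no section term. The Kcnq5 value also turned when spots were grouped by clustering: in the cluster named after the dentate list, which held 238 and 220 spots where the marker class held 117 and 100, its log2 fold change was 0.72 and was called higher. In the upper tertile of dentate spots by score Kcnq5 had 9.07 and 14.4 CPM in sections 1 and 2, against 18.4 and 19.4 CPM in the lower tertile. These levels rest on few UMIs, 12 and 13 in the upper tertile and 15 and 15 in the lower, and the tertiles were not tested. For Kcnq3 the sections went opposite ways, with 88.5 and 51.9 CPM in the upper tertile, against 72.5 and 69.8 CPM in the lower tertile.

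Genes of the M-current pathway were also followed in isocortex, hippocampus and striatum. In superficial isocortex 5 of 7 genes of the muscarinic and Gq pathway were called higher and none lower, with a list median of 0.62, against -0.01 for all genes. Among them were Chrm3 (0.85 ± 0.16) and Chrm1 (0.81 ± 0.14), receptors that close the M-channel, and Plcb1 (0.63 ± 0.13). Akap5, the anchor of kinases at the M-channel, was also higher (1.15 ± 0.15), 1 of 3 called of the 6 anchor and calmodulin genes. Layer 5 isocortex had 4 of the 7 pathway genes higher (median 0.35) and layer 6 isocortex 5 of 7 (median 0.61), with none lower. In CA3 Gnaq was the only one called (0.33 ± 0.10, median of the list 0.26). In CA1, 5 of the 7 pathway genes were higher and 1 lower, with Chrm1 at 1.03 ± 0.13 and Plcb4 the lower one (-0.49 ± 0.13). Dentate gyrus had Chrm1 (1.05 ± 0.13) and Plcb1 (0.35 ± 0.12) higher and Plcb4 lower (-0.87 ± 0.15), 2 and 1 of 7. In striatum Plcb1 (0.79 ± 0.14) was the only one of the 7 called, and Akap5 (1.71 ± 0.14) led the 3 of 6 anchor and calmodulin genes called higher. Adjusted p-values of these named genes were under 0.05 by edgeR. Excitatory neuron genes moved with them in cortex and hippocampus: of 5 glutamatergic genes tested, 3 were called higher in superficial isocortex, 4 in layer 5, 4 in layer 6, 4 in CA3, 5 in CA1 and 5 in dentate gyrus, while in striatum 1 was higher and 3 lower. The summed level of the whole list was 3770 and 3701 CPM in superficial isocortex in sections 1 and 2, against 891 to 3362 and 1478 to 3910 CPM in the other classes, with no gene at 0. Its part in the channel results was not tested.

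Meninges, a class low in neuronal genes, had lower levels of both KCNQ genes, Kcnq5 with 13.3 and 20.03 CPM (-0.71 ± 0.20, adjusted p = 0.00692, edgeR) and Kcnq3 with 39.7 and 42.9 CPM (-0.51 ± 0.13, adjusted p = 0.00394). There 13.6% of genes were called higher and 8.12% lower, and all 8 pan-neuronal genes were among the lower ones. Red blood cell genes were called higher there, 5 of 5, with summed levels of 9055 CPM in section 1, against 542 to 1892 CPM in the other classes, and 12778 CPM in section 2, against 594 to 3687 CPM. Endothelial genes (5 of 5, median 1.18), astrocyte genes (6 of 7, median 0.86) and microglial genes (5 of 6, median 0.51) were also higher, and 5 of 5 glutamatergic genes were lower (median -0.65). No gene of these lists was at 0, and their part in the channel results was not tested. Without the section 1 sum neither channel call held (-0.19, adjusted p = 0.870, and -0.29, adjusted p = 0.607). In choroid plexus, ependyma, the Tac2-rich class and the class of layer 6b, claustrum and endopiriform nucleus no channel gene was called in either direction, where the share of all genes called higher was 8.28%, 6.01%, 0.0887% and 0.0666%, and lower 3.61%, 1.89%, 0% and 0%. Levels in these classes were not 0: choroid plexus spots still had 58.1 and 226.5 CPM of Hcn2 and 45.4 and 43.6 CPM of Kcnq3.

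Since Kcnq3 and Kcnq5 are counted in the same spots, the share of Kcnq5 among their summed UMIs was compared between classes, where depth cancels. Over all spots it was 29.8% in section 1 and 30.6% in section 2. Thalamus had 11.1% (8.79 to 13.8, exact binomial, 638 UMIs) in section 1 and 12.8% (9.87 to 16.2, 462 UMIs) in section 2, and dentate gyrus had 14.3% (10.5 to 18.9) and 22.3% (16.6 to 28.8). These were the lowest shares in both sections. The thalamus interval overlapped those of dentate gyrus and choroid plexus in section 1 and no other class in section 2. At the other end the order differed between the sections. Superficial isocortex was highest in section 1 (46.4%, 42.5 to 50.4) but not in section 2 (33.8%, 23.6 to 45.2), where midbrain dopamine spots were highest (39.6%, 26.5 to 54.0), against 30.9% in section 1. High in both sections were CA3 with 40.3% (34.1 to 46.8) and 38.3% (31.8 to 45.2), and layer 5 isocortex with 38.9% and 38.8%. Striatum had 44.0% (24.4 to 65.1) from 25 UMIs in section 1 and 36.9% (32.8 to 41.1) in section 2. Within the hippocampal formation the share therefore ran from CA3 over CA1 (27.0% and 32.2%) to dentate gyrus in both sections.

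**Figure D3:**
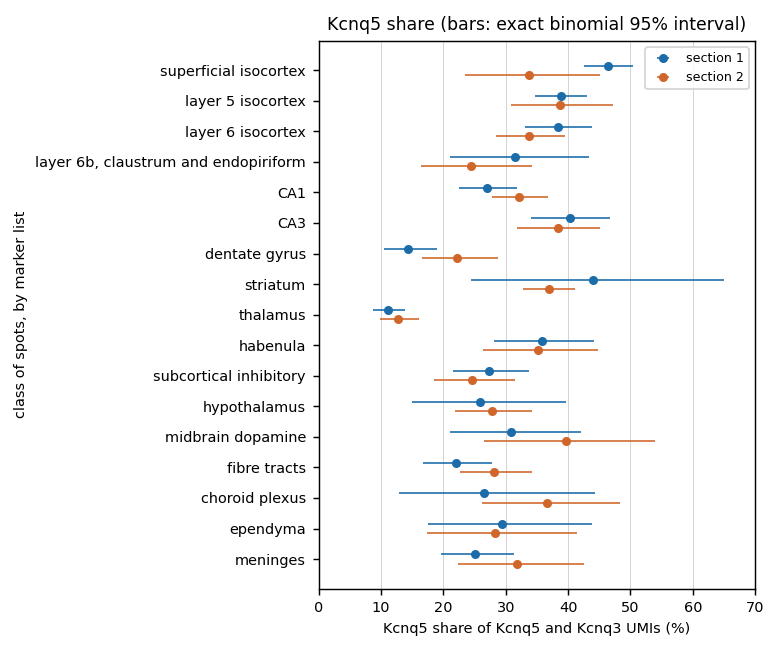
Share of Kcnq5 among the summed UMIs of Kcnq5 and Kcnq3 (percent, horizontal axis) in each class (vertical axis), in section 1 (blue) and section 2 (orange), with exact 95% binomial intervals. Thalamus has the lowest share in both sections (11.1% and 12.8%), and superficial isocortex, CA3 and striatum lie near 34% to 46%.

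Hcn2 was the 1 gene of the 5 whose overall level differed strongly between the sections. It had 4342 UMIs or 74.0 CPM (71.9 to 76.3) in section 1 and 14417 UMIs or 258 CPM (254 to 262) in section 2. The ratio of section 1 to section 2 was 0.287 (0.277 to 0.297, counting error only). With 1 library per section there is no test of this difference. The level was lower in section 1 in 17 of 17 classes, and the ratio lay between 0.217 (fibre tracts) and 0.362 (hypothalamus), with a median of 0.261. Of 9961 genes with at least 1000 UMIs in both sections together, 157 (1.58%) were at least 1.5-fold higher and 220 (2.21%) at least 1.5-fold lower in section 1, their median ratio was 1.03, and 0.271% lay as far from equality as Hcn2.

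Counted from the lowest ratio among those 9961 genes, Hcn2 had rank 20, and it was 1 of 15 that were over 2-fold lower in section 1 in every one of the 17 classes. The other 14 included, chosen after their values were seen, Grin1, the obligatory NMDA receptor subunit (7843 and 23725 UMIs, ratio 0.315), Pcsk1n, which encodes the prohormone convertase inhibitor proSAAS (20828 and 78773 UMIs, 0.252), C1qtnf4 (0.198), Ppp1r14a (0.192), Cabp1 (0.355) and Rnf126 (0.363). The lowest ratio of the 15 was that of Cartpt (502 and 3311 UMIs, 0.144), a gene on the hypothalamus list. The genes next to Hcn2 on chromosome 10 did not share the difference: Polrmt, 17 bp away, had 1455 and 1397 UMIs (ratio 0.992) and Bsg had 35993 and 38189 UMIs (0.898). The section cannot be told apart from the software that made its table, since the file headers give Space Ranger 1.2.2 for section 1 and 2.0.1 for section 2.

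The other channel genes were closer. Hcn3 had 11.9 CPM in section 1 and 16.2 CPM in section 2 (ratio 0.731, 0.661 to 0.808) and was lower in section 1 in 15 of 17 classes. Hcn4 had 10.7 and 11.0 CPM (0.971, 0.867 to 1.09), Kcnq3 61.0 and 53.8 CPM (1.13, 1.08 to 1.19) and Kcnq5 26.0 and 23.7 CPM (1.09, 1.01 to 1.18). Hcn4 was higher in section 1 in 3 classes, thalamus among them (ratio 1.44), and lower in 14. Over the 17 classes, Pearson's r between the log2 levels of section 1 and section 2 was 0.82 for Hcn2, 0.80 for Kcnq3 and 0.79 for Kcnq5. It was lower for Hcn4 (0.65) and Hcn3 (0.61). For Hcn4 thalamus was highest in both sections, but other classes went opposite ways. Superficial isocortex had 4.99 and 16.5 CPM of Hcn4 in sections 1 and 2, and striatum had 17.9 and 7.86 CPM. The values of r are descriptions over classes that share libraries, and not tests.

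**Figure D4:**
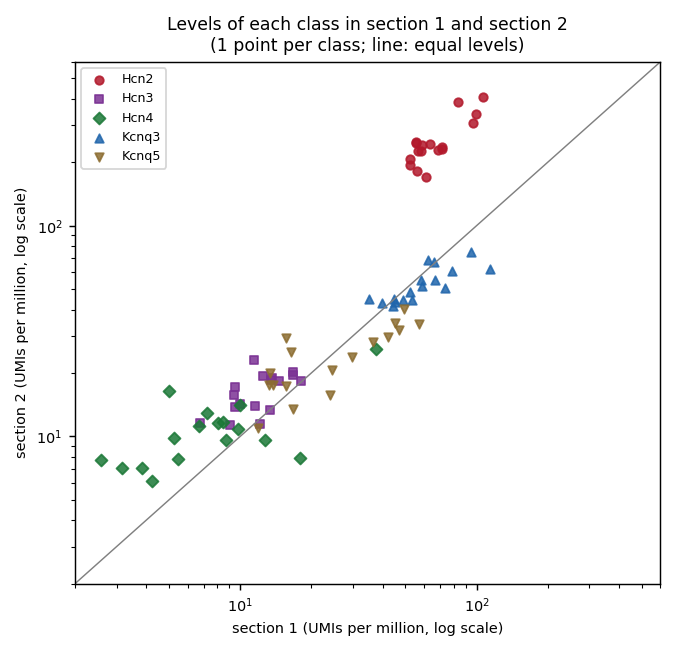
Level of each channel gene in section 1 (horizontal axis) against section 2 (vertical axis), both in CPM on log scales, with 1 point per class and the line of equal levels. The 17 Hcn2 points form a band above the line (ratios of section 1 to section 2 of 0.217 to 0.362), and the points of Kcnq3 and Kcnq5 scatter about it.

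Genes whose levels ran most like those of a channel gene were found by Pearson's r of log2 levels over the 34 sums, restricted to genes whose average log2 CPM reached 5. The sums share their libraries and some of their composition, so r is a description. Kcnq3 was most like Atp2b1 (plasma membrane calcium pump, r = 0.88), Anks1b (0.86), Grin2b (NMDA receptor subunit, 0.86) and B230334C09Rik (0.85). Kcnq5 was most like Homer1 (postsynaptic scaffold, 0.82), Prkcb (protein kinase C beta, 0.80), Kctd1 (0.80) and Cacng3 (AMPA receptor auxiliary subunit, 0.78). Hcn4 was most like Amotl1 (0.82), Fam20c (0.77), Kndc1 (0.75) and Spock3 (0.75), and Hcn3 like Gprasp1 (0.81), Tmem130 (0.81), Ndn (0.79) and Gaa (0.78).

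For Hcn2 the rule named Bin1 (0.96), Smdt1 (0.95), Pcsk1n (0.94) and Ppp1r14a (0.93). Ppp1r14a and Pcsk1n are also among the 15 genes low in every class of section 1, and within sections 1 and 2 r was 0.40 and 0.15 for Pcsk1n. With each section's mean removed, which was chosen after these values were seen, Hcn2 was most like Nacc2 (0.87), Enho (0.80), Paqr4 (0.79) and Rcan2 (0.79). Among the channel genes themselves, on the same section-centred scale, Hcn2 and Hcn4 had the highest r (0.71), Kcnq3 and Kcnq5 had 0.35, and Hcn2 and Kcnq5 had -0.43.

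In 2 classes too small in section 2 to be tested, levels are given for section 1. The 167 spots of the midbrain and hindbrain list had 117 CPM of Hcn2 (105 to 129), above every tested class of section 1, with 13.9 CPM of Hcn4, 7.93 CPM of Hcn3, 44.0 CPM of Kcnq3 and 12.2 CPM of Kcnq5. The Hcn2 interval overlapped those of thalamus (98.4 to 115), subcortical inhibitory, midbrain dopamine and striatum spots. The 135 spots of cerebellar cortex had 75.7 CPM of Hcn2, 7.67 CPM of Hcn4, 12.5 CPM of Hcn3 and 14.4 CPM of Kcnq5. Their Kcnq3 level, 32.6 CPM (25.3 to 41.3), was below every tested class of that section, but its interval overlapped those of 8 tested classes, among them midbrain dopamine spots (34.9 CPM, 26.4 to 45.3) and meninges (39.7 CPM).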

How the data were processed

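Spatial RNA was measured in 2 sections, and the authors deposited raw UMI counts per gene and spot made with Space Ranger, per the file headers versions 1.2.2 (section 1) and 2.0.1 (section 2); the submitters' processing notes name 2.0.1 and mm10. Spots under 500 UMIs were dropped. A spot's score on a marker list was the mean z-score of depth-scaled log counts, the highest of 19 lists decided its class and scores under 0.7 gave none. That minimum, and leaving out a 20th list (olfactory bulb), were decided after the score distributions were seen, without the levels of the 5 channel genes. Spots hold several cells, so no doublet caller was run. The 34 sums of UMI counts (17 classes, 2 sections, 223639 to 5979671 UMIs) were fitted in edgeR 4.0.16 (R 4.3.3) with TMM factors (0.924 to 1.12), filterByExpr and terms for class and section. Of 32285 genes, 18642 were dropped by the filter and 121 marker genes were left out. The section term pairs the sums of 1 library. Counts and the test were checked on simulated data. Genes most alike were the 4 with the highest r per channel gene. Every call of the 5 genes is given, and of each pathway list up to 4 called genes per class, by size of change. The genes and lists were chosen with earlier results of these data known. Alternatives included DESeq2 1.42.0, other filters, Leiden clusters (leidenalg 0.10.2) and leaving out each section's sum of the tested class. Intervals cover counting error only. Some genes are not reported here.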

Additional observations from a re-analysis of the deposited data

How the results depend on the processing

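Of the 28 calls of the 5 genes in 85 comparisons, 3 kept their side of the threshold in every setting run, those of Hcn4, Kcnq3 and Kcnq5 in thalamus, and 50 of the 57 comparisons not called stayed so. Without the replicate block, the term for the section that pairs the sums of 1 library, 7 comparisons were called higher and 2 lower, against 15 and 13, and 3 in place of 5 genes differed among the classes. Leaving out 1 section's sum of the tested class (without replicate 1 or without replicate 2) left 7 to 11 called higher and 4 to 8 lower. DESeq2 called 12 higher and 11 lower of 82, no count filter 15 and 16, at least 5000 UMIs per spot 13 and 11 of 75, the stricter score minimum of 1 gave 11 and 10 of 65, and Leiden clusters 11 and 11 of 45. In those clusters Kcnq5 in dentate gyrus was 0.72 and Hcn3 in fibre tracts 0.015 on the log2 scale. Kcnq3 in striatum was -0.087 without replicate 2 and 0.52 without replicate 1. The causes were not tested. With section 2 weighted to the class sizes of section 1, the ratio of section 1 to section 2 was 0.260 for Hcn2, 0.849 for Hcn4 and 1.22 for Kcnq5. Alternatives chosen after seeing the data called 13 higher and 11 lower of 75 (a margin of 0.2 over the second list), 14 and 13 of 80 (without the habenula list's class) and 14 and 12 of 80 (without the spots richest in red blood cell genes). The difference among all classes was not rerun with DESeq2, with sections left out or with these added alternatives. Depth limits Hcn3 and Hcn4, whose classes rest on as few as 3 UMIs in a section.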
